A study of Mus musculus with 16 samples.

Results

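The slow fibre contractile genes are 10 genes whose products build the contractile apparatus and the calcium store of slow (type I) muscle fibres. They are Myh7, Myl2 and Myl3 of the myosin motor, Tnnt1, Tnni1, Tnnc1 and Tpm3 of the thin filament, Myoz2 of the Z-disc, and Atp2a2 and Casq2 of the sarcoplasmic reticulum. They were chosen by name, with earlier results of these data known. The choice was from the 17097 genes that the array table names through probe sets with a single gene symbol. All 10 were found and no filter on level was applied, so each of the 10 is described. Where a gene had more than 1 such probe set, the one with the brightest mean over the 16 arrays stands for it and the others served as a check.

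The arrays held RNA from the quadriceps, a thigh muscle, of 16 mice, 1 mouse an array. The 4 groups of 4 were control mice at 6 months (young control), mice knocked out for Mfn2 at 6 months (young KO), control mice at 22 months (old control) and Mfn2 KO mice at 22 months (old KO). Mfn2 encodes mitofusin 2, a protein of the mitochondrial outer membrane that fuses mitochondria. All mice ate standard chow, and the labels add a family to each mouse: families A and B occur only among the old mice, C and D only among the young, and mice called Other at both ages. Family and genotype were uneven: old KO 1 to 3 were of family A, old control 1 of A and old control 2 and 3 of B. The promoter that drives the deletion, the cells it reaches and the part of the quadriceps that was taken are not given in the sources used here.

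Skeletal muscle mixes slow fibres, which contract slowly, burn fuel in mitochondria and resist fatigue, with fast fibres that contract quickly and tire. Each fibre type builds its sarcomere from its own versions of the same proteins, so a slow myosin, troponin and calcium pump have fast counterparts coded by other genes. In mice most of the quadriceps is fast, and slow fibres lie mainly in its deep part, next to the bone. In whole pieces of muscle, fewer slow fibres and less RNA per slow fibre cannot be told apart.

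Promoters of members whose levels moved together over the 16 mice show what lies at their starts. RefSeq promoters on GRCm38.p6, from 250 bases before to 50 after a start, matched 9 of the 10 members with 13 starts, and the 6 printed 5′ to 3′ are those of Myh7, of the member that followed it most closely (Tnni1, the more upstream of its starts), of the other members that hold an M-CAT element, and of Tpm3, whose probe sets disagreed. Capitals mark the E-box CANNTG, bound by MyoD and its relatives, and M-CAT, CATTCC on either strand, bound by TEAD factors.
Myh7, chr14:54994577-54994876, minus strand: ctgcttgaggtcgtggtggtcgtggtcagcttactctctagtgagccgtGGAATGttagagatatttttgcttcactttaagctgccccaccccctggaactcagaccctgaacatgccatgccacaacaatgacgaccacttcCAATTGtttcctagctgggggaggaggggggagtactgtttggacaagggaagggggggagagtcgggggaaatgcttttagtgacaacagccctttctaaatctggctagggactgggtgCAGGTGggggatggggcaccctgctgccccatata
Tnni1, chr1:135799171-135799470, plus strand: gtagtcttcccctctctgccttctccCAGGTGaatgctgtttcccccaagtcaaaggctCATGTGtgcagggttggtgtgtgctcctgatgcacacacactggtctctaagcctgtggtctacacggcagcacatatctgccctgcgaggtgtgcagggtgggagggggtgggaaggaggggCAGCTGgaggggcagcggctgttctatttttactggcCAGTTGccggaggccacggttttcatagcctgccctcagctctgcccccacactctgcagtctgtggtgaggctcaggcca
Tnnc1, chr14:31208062-31208361, plus strand: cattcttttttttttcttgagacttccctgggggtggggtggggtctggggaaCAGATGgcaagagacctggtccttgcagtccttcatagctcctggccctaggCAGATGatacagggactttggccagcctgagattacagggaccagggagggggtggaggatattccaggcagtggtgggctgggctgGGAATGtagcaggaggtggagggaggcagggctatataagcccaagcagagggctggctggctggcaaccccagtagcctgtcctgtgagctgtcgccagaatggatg
Myl3, chr9:110763428-110763727, plus strand: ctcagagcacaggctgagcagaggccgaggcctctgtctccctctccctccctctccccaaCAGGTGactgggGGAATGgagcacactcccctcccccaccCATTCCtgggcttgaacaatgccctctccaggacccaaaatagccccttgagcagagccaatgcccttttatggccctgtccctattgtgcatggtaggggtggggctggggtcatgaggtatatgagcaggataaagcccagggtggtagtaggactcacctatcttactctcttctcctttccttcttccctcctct
Tpm3 upstream start, chr3:90072401-90072700, plus strand: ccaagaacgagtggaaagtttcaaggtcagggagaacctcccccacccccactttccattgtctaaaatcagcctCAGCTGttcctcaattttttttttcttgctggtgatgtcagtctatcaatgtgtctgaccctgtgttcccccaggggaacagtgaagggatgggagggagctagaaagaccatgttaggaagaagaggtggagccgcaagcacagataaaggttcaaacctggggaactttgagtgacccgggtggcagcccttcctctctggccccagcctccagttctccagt
Tpm3 downstream start, chr3:90079271-90079570, plus strand: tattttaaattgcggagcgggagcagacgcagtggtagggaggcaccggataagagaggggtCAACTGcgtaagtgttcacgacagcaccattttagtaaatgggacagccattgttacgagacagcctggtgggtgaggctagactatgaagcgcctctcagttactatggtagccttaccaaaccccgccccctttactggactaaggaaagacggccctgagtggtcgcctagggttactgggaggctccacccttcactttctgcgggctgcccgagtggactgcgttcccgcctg

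The E-box letters occurred in 13 of the 13 member promoters and in 72.3% of the 32851 promoters of the same length. M-CAT letters occurred in 3 of the 13, those of Myl3 and Tnnc1 and the upstream start of Myh7, in 14.7% of all promoters, and for 3 of the 7 fast counterparts matched. By name, the MEF2 motif was found for Casq2 and Myoz2 (3.19% of all promoters) and the CArG box for Myl3 (1.63%). The letters AAGGTCA, bound by the oestrogen-related receptors, was found for Tpm3 (4.72%). All motifs were searched on both strands, and a match describes the letters only.

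The targeted gene was read first. On the log2 scale of the deposited values, Mfn2 stood at 8.66, 9.05, 8.03 and 9.45 in young control 1 to 4 and at 8.41, 8.49, 8.38 and 8.54 in young KO 1 to 4. In old control 1 to 4 it stood at 8.52, 8.67, 8.34 and 9.18, and in old KO 1 to 4 at 8.31, 8.01, 6.32 and 8.32. The young groups overlapped, the old groups did not, and the KO minus control difference was -0.34 at 6 months (adjusted p from limma 0.99996) and -0.94 at 22 months (unadjusted p 0.0254, adjusted p 1). Whether its probe set lies in the deleted part is not given in the sources used here, so these levels do not check the labels firmly. Arrays of the same replicate number resembled each other: the SD over all probe sets was 1.90 and 1.93 on average for numbers 1 and 2, and 1.72 and 1.80 for numbers 3 and 4.

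Myh7, the slow and cardiac myosin heavy chain that is the motor of type I fibres, differed more between mice than between groups. Its log2 signal was 4.68, 8.71, 4.91 and 9.61 in young control 1 to 4, and 10.70, 9.89, 6.18 and 7.16 in young KO 1 to 4. It was 4.83, 10.15, 9.34 and 5.51 in old control 1 to 4, and 10.62, 8.48, 10.17 and 6.16 in old KO 1 to 4. Every group held both low and high mice, so the groups overlapped throughout. The highest mouse, young KO 1, stood 65.0-fold above the lowest, young control 1, and within a group the highest mouse stood 22.2-fold (old KO) to 40.0-fold (old control) above the lowest. Group means were 6.98 ± 2.55 in young controls, 8.48 ± 2.15 in young KO mice, 7.46 ± 2.68 in old controls and 8.86 ± 2.02 in old KO mice (SD, n = 4 each, as for all group means here).

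Myl2 encodes the slow regulatory light chain of myosin, and Myl3 the slow and ventricular essential light chain. Myl2 ranged 50.1-fold, from 5.46 in young control 3 to 11.10 in old KO 1, with group means of 8.32 ± 2.27 in young controls, 9.999 ± 0.92 in young KO mice, 9.05 ± 2.04 in old controls and 9.70 ± 1.65 in old KO mice. Myl3 was 8.47, 10.92, 6.07 and 10.90 in young control 1 to 4 and 11.56, 11.09, 11.08 and 9.90 in young KO 1 to 4. In old control 1 to 4 it was 6.02, 11.31, 10.92 and 8.31, and in old KO 1 to 4 it was 11.47, 9.92, 10.89 and 7.07. The young KO group was the only one of the 4 with no mouse under 9 for Myl3, and its range (3.16-fold) was narrower than the 28.8-fold of young controls, 39.1-fold of old controls and 21.0-fold of old KO mice. The other Myl3 probe sets followed the one used, with r of 0.994 and 0.995 over 16 arrays. For Myh7 the second probe set ran alongside the first (r = 0.950) over a smaller range of 9.49-fold.

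The slow troponins rose and fell with Myh7 from mouse to mouse. Tnni1, the slow inhibitory troponin, was 5.17, 8.36, 5.39 and 9.33 in young control 1 to 4 and 10.40, 9.48, 6.50 and 7.02 in young KO 1 to 4. It was 5.78, 9.92, 9.33 and 5.95 in old control 1 to 4 and 10.52, 8.56, 9.87 and 6.40 in old KO 1 to 4. Its low and high mice were those of Myh7 in each group, and its range was 40.7-fold. Tnnc1, the calcium-binding troponin C of slow and cardiac muscle, ranged 55.0-fold, from 5.25 in young control 1 to 11.03 in young KO 1. Tnnt1, the slow troponin T that ties the complex to tropomyosin, ranged 17.2-fold, from 5.95 in old control 1 to 10.06 in old KO 1. Tnnc1 group means were 7.54 ± 2.48, 9.34 ± 1.58, 8.39 ± 2.38 and 9.46 ± 1.76, and those of Tnnt1 were 7.32 ± 1.44, 8.24 ± 1.61, 7.70 ± 1.86 and 8.43 ± 1.68, for young control, young KO, old control and old KO in that order.

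Tpm3 encodes the slow tropomyosin of muscle and, from another start, tropomyosins of other cells. On the probe set used it was 6.80, 9.66, 6.76 and 10.71 in young control 1 to 4 and 11.31, 10.70, 8.88 and 9.21 in young KO 1 to 4. In old control 1 to 4 it was 7.04, 10.84, 10.53 and 7.86, and in old KO 1 to 4 it was 11.23, 9.53, 11.26 and 8.39. The range was 23.3-fold, with low and high mice much as for Myh7. A second probe set ranged 44.8-fold and followed it with r = 0.991. The other two ranged only 2.07-fold and 2.19-fold, between 7.37 and 8.42 and between 6.87 and 8.00, with r of 0.576 and 0.492. Which transcripts of the start sites printed above each probe set detects was not tested.

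Myoz2, calsarcin-1, a Z-disc protein of slow and cardiac muscle that binds calcineurin, was 7.66, 9.07, 5.19 and 8.85 in young control 1 to 4 and 9.74, 9.33, 8.71 and 8.13 in young KO 1 to 4. It was 6.74, 9.27, 8.85 and 7.36 in old control 1 to 4 and 9.57, 8.64, 8.58 and 7.001 in old KO 1 to 4. Young control 3 stood lowest by a wide margin, and all groups overlapped within a 23.5-fold range. Atp2a2, the SERCA2 pump that returns calcium to the store of slow and cardiac muscle, ranged 16.02-fold, from 6.39 in young control 3 to 10.40 in old KO 1. Its group means were 7.88 ± 1.32, 8.94 ± 1.19, 8.45 ± 1.48 and 8.96 ± 1.39 in the order young control, young KO, old control, old KO. The 2 other Atp2a2 probe sets were dim, between 2.76 and 3.62, and did not follow it (r = 0.523 and -0.246).

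Casq2, the cardiac and slow calsequestrin that holds calcium inside the store, varied least of the 10, over 5.44-fold. It was 6.27, 7.40, 5.67 and 7.36 in young control 1 to 4 and 8.09, 7.42, 6.24 and 6.81 in young KO 1 to 4. It was 6.26, 7.34, 7.10 and 6.76 in old control 1 to 4 and 8.11, 7.40, 6.66 and 6.54 in old KO 1 to 4. Young KO 1 and old KO 1 were the highest mice, and old KO 3, high for Myh7, was among the lower mice for Casq2.

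Ranking the mice within each member gave nearly the same order throughout. Old KO 1 and young KO 1 had median ranks of 1.5 over the 10 members, where 1 is the highest mouse, and never ranked below 3 and 2. At the other end, young control 3 (median rank 15.5), old control 1 (15) and young control 1 (14) were never above 14, 14 and 12. The mice at both ends of the order thus included replicate number 1 of all 4 groups, the KO mice of that number at the top and its controls at the bottom. Young KO 3 changed place most, from rank 5 to rank 15 depending on the gene.

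The spread between mice within groups was far above that of other genes. Myh7 had the largest residual SD of all 17097 genes, 2.37, against a median over all genes of 0.225. Tnnc1 ranked 3, Tnni1 4, Myl3 5, Myl2 6, Tpm3 8 and Tnnt1 9, so that 7 of the 10 most variable genes were slow fibre genes. Atp2a2 ranked 16, Myoz2 21 and Casq2 172, and 9 of the 10 members were above the 99th percentile of 0.727, with Casq2 at it. With all arrays scaled to 1 spread, chosen as an alternative, the ranks ran from 1 for Myh7 to 24 for Myoz2, and Casq2 fell to 595.

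**Figure D1:**
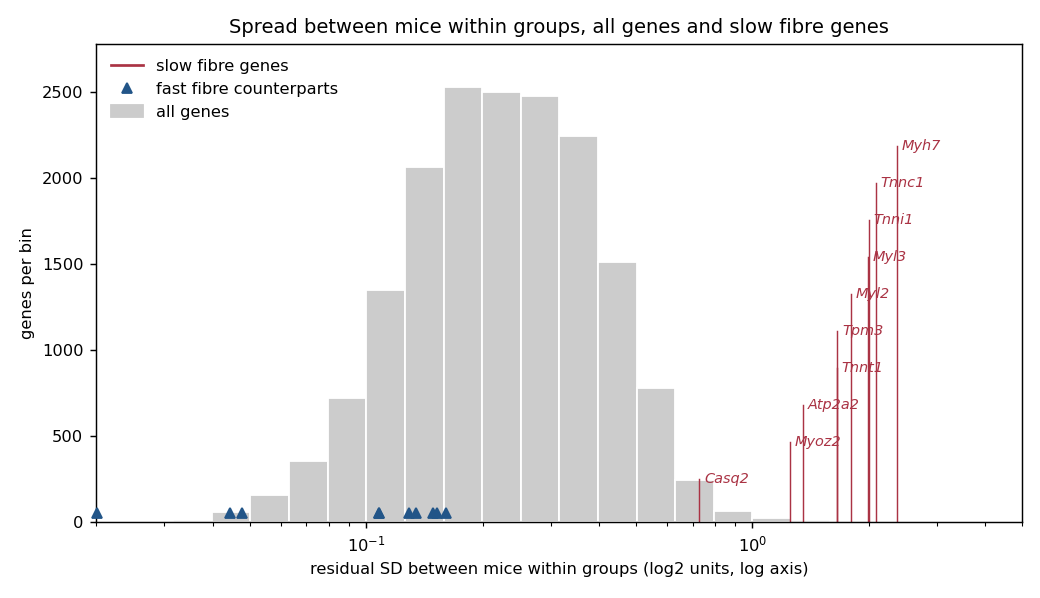
Residual SD between mice within groups, on a log axis in log2 units, for all genes (grey bars, genes per bin), the 10 slow fibre genes (red lines, whose heights only separate the names) and their 10 fast counterparts (blue triangles). The slow fibre genes lie at or beyond the right edge of the distribution, from 0.727 for Casq2 to 2.37 for Myh7.

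Most genes on these arrays varied with the replicate number, and the slow fibre genes did not do so detectably. In limma's F test 66.6% of all genes differed between the 4 replicate numbers at an adjusted p under 0.05, against 0 of the 10 members, none of which had an unadjusted p under 0.05 either; the smallest adjusted p was 0.146, for Casq2. Of the variance over the 16 mice, the replicate number held a median of 13.96% in the members and 61.5% over all genes, and the group 13.7% and 9.58%. What neither accounted for was 72.9% in the members and 25.0% over all genes, where each of group and number uses 20% of the degrees of freedom.

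The fast counterparts gave no such spread. Myh4, the fast IIb myosin heavy chain, ranged 1.35-fold, from 12.07 to 12.51, over the same 16 mice in which Myh7 ranged 65.0-fold. The fast troponins Tnnt3, Tnni2 and Tnnc2 ranged 1.31-fold, 1.17-fold and 1.32-fold, and the fast calcium pump Atp2a1 1.06-fold. The widest range among the 10 counterparts was 1.46-fold, for the fast regulatory light chain Mylpf. These genes lay between 11.49 and 12.81, near the highest value in the table, 13.05, and whether the top of the scale limited their range was not tested. Their high levels in every mouse go with the skeletal muscle of the labels, which name no fibre type. Myh2, the IIa myosin heavy chain of fast oxidative fibres, ranged from 9.96 to 12.35.

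**Figure D2:**
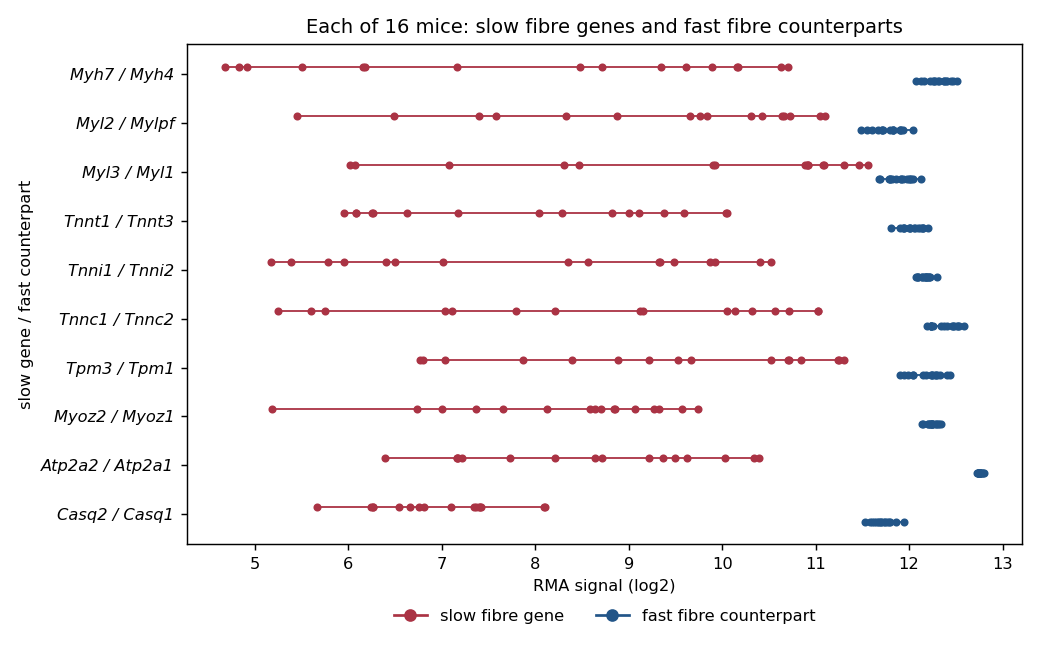
Log2 RMA signal of each slow fibre gene (red) and its fast counterpart (blue) in each of 16 mice, 1 point a mouse and 1 row a pair; levels of different probe sets are not compared. The red points spread over 2.44 to 6.02 log2 units and the blue ones over 0.08 to 0.55.

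The members moved together. Over the 16 mice the correlation with Myh7 was r = 0.995 for Tnni1, 0.989 for Tnnc1, 0.988 for Tnnt1, 0.983 for Tpm3 and 0.965 for Atp2a2. It was 0.908 for Myl2, 0.850 for Casq2, 0.849 for Myl3 and 0.847 for Myoz2. Spearman's rho ran from 0.776 for Casq2 to 0.994 for Tnnc1. All 9 relations had permutation p-values for r between 1e-05, the smallest that 100000 permutations can give, and 5e-05, with Benjamini-Hochberg values over the 9 of at most 5e-05; for rho the largest was 0.00082. The members were chosen with earlier results of these data known, so these p-values are not independent evidence that they move together. Without the 2 mice farthest from the Myh7 median, young control 1 and old control 1, r lay between 0.824 and 0.996. With the means of each group and each replicate number removed, it lay between 0.838 and 0.999. Of the 45 pairs among the 10 genes, 44 had r over 0.8, and the lowest was 0.746 for Myl3 with Casq2.

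Departures from the common order were largest for the light chains and Myoz2. In young KO 3 Myh7 was low (6.18) while Myl3 stood 2.61 above its line on Myh7, Myl2 1.73 above and Myoz2 1.22 above, on the log2 scale. In the same mouse Tnnc1 stood 0.68, Tpm3 0.72 and Atp2a2 0.63 above, and Tnni1 was on its line (-0.01). Young control 3, with a lower Myh7 signal still (4.91), departed the other way: Myoz2 stood at -1.71, Myl2 at -1.69 and Myl3 at -1.47 from their lines. For Casq2 the largest departure was -0.88, in old KO 3. The light chains and Myoz2 thus varied partly apart from Myh7, with an SD about the line of 1.06 for Myl3, 0.76 for Myl2 and 0.67 for Myoz2, against 0.19 for Tnni1 and 0.25 for Tnnt1. They kept close to each other over the 16 mice. Their r was 0.969 for Myl2 with Myl3, 0.960 for Myl2 with Myoz2 and 0.952 for Myl3 with Myoz2.

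**Figure D3:**
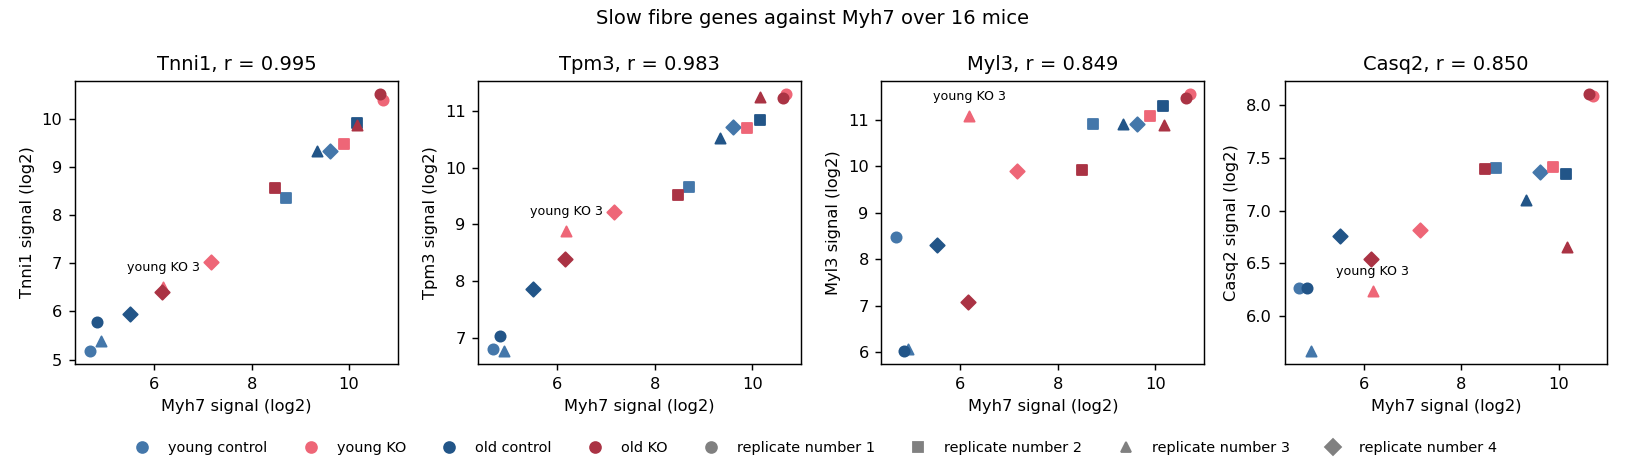
Log2 signal of Tnni1, Tpm3, Myl3 and Casq2 against Myh7, 1 point a mouse, coloured by group and shaped by replicate number, with Pearson's r over 16 mice above each panel. Tnni1 keeps to a line (r = 0.995) while Myl3 (r = 0.849) stands far above it in young KO 3.

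A fit over all genes asked which others rose or fell with Myh7 among mice of the same group; it was added after the values had been seen. With the Myh7 level as a slope beside the group means, limma called 7 of the other 9 members higher at an adjusted p under 0.05, against 0.0409% of the 17096 genes tested, and these 7 were all the genes called. Slopes were 0.84 ± 0.02 (SE) for Tnni1, 0.87 ± 0.03 for Tnnc1, 0.69 ± 0.03 for Tnnt1, 0.69 ± 0.03 for Tpm3, 0.55 ± 0.04 for Atp2a2, 0.69 ± 0.09 for Myl2 and 0.73 ± 0.11 for Myl3, in log2 units per log2 unit of Myh7. Myoz2 (slope 0.45, adjusted p 0.0529 in limma) and Casq2 (0.26, adjusted p 0.107) missed the threshold. With the replicate number as a block, 7 of 9 were called again (0.0526% of all genes higher, 0.0351% lower), now with Casq2 (adjusted p 0.00576 in limma) and without Myl3 (0.0548) and Myoz2 (0.0601). The block added 8 genes outside the members: Pla2g12a and Phyhd1 higher, and Cbfb, Mlxip, Man2a2, Gnpnat1, Ecpas and 9630025H16Rik lower. Without young KO 3, the mouse whose light chains departed most, 8 of the 9 members and 1 other gene were called, and with the block 9 of the 9 members, 39 other genes higher and 31 lower.

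Among 14 other measured genes tied to slow or oxidative fibres, 0 passed the adjusted threshold in that limma fit and 10 had a higher slope at an unadjusted p under 0.05, where 2.50% of all genes did. Their leading genes were Pdlim1, a LIM protein of the Z-disc (slope 0.22, adjusted p 0.0736), Actn2, the alpha-actinin that cross-links actin there (0.12), Myom3, an M-band protein (0.26), and Csrp3, the muscle LIM protein (0.43). Myom3 ranged from 4.36 to 7.36 and Csrp3 from 4.82 to 10.30 over the 16 mice. Of 20 measured regulators of the slow programme, 0 passed the adjusted threshold, 5 had higher and 1 lower slopes at an unadjusted p under 0.05 (2.50% and 1.02% of all genes). The higher ones included the oestrogen-related receptor Esrrg (slope 0.22, adjusted p 0.156), Vgll2, a TEAD cofactor (0.12), and Esrrb (0.19), and the lower one was Ppp3ca, a catalytic subunit of calcineurin (-0.05). With the replicate block 7 regulators were higher and 4 lower at that p, against 717 and 859 of all 17096 genes. Again 0 passed the adjusted threshold, and the smallest p-values were those of Esrrg, Esrrb and Prox1, higher, and Ppp3ca, lower. Levels were low for Prox1, between 3.32 and 4.26, and for Esrrb, between 3.31 and 5.74. The unadjusted p of Prox1 in limma without the block was 0.095. Without the block, 0 of 10 fast counterparts were called, and Myoz1 and Casq1 had lower slopes at an unadjusted p under 0.05. Of 6 other fast genes 0 were called, with Myh1 (0.03) and Myh2 (0.15) higher and the kinases Mylk2 (-0.07) and Mylk4 (-0.05) lower at that p.

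Genes of calcium release (12), of embryonic muscle and denervation (11) and of other cell types were read in the same limma fit, and 0 passed the adjusted threshold. At an unadjusted p under 0.05, 4 of the 12 calcium release genes were lower (Cacng1, Srl, Jph2 and Trdn) and embryonic myosin Myh3 was higher (slope 0.12). Markers of fat (3), endothelium (7), smooth muscle (3), fibroblasts (5), macrophages (6), Schwann cells (3), satellite cells (5) and red blood cells (3) gave none at that p in either direction without the block. Of 6 tendon markers, Tnmd (slope 0.19) and Fmod (0.13) were higher at that p, 33.3% of the list, where 2.50% of all genes were. With the replicate block 0 of the 6 were (Tnmd p 0.0584, Fmod p 0.0622 in limma), and the endothelial marker Flt1 was (slope 0.06, p 0.0445). The mean level of the tendon list lay between 6.00 and 6.85 in young controls, 5.91 and 7.11 in young KO mice, 5.80 and 6.68 in old controls and 6.18 and 6.48 in old KO mice. No array reads a true 0. The 6 tendon markers reached at most 3.63 (Mkx), 4.86 (Scx), 7.0013 (Kera), 7.70 (Tnmd), 9.72 (Fmod) and 10.36 (Thbs4) in any mouse. The part of tendon in the variation of the slow genes was not tested.

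Over the 16 mice, 29 of 17087 other genes had r over 0.8 with the mean of the 10 standardised members, and 6 had r under -0.8. The highest were Pdlim1 (0.922), Idh2, the mitochondrial isocitrate dehydrogenase (0.900), Esrrg (0.889), Ldhb, the heart form of lactate dehydrogenase (0.880), the scaffold Homer2 (0.871) and Actn2 (0.864). Ldhb ranged from 8.84 to 11.29 and Homer2 from 5.31 to 8.10. The lowest were Phka1, the muscle regulatory subunit of phosphorylase kinase (-0.892), the malic enzyme Me1 (-0.884) and Sh3bgr (-0.859), each over at most 1.38-fold. With group and replicate number means removed the highest were A230009B12Rik (0.980), Dhrs4 (0.968), Pla2g12a (0.947), Ogdh (0.944), Ramp3 (0.932) and Homer2 (0.930), and the lowest Mospd1 (-0.971), Metap1 (-0.958) and Man2a2 (-0.955). These genes were picked as the extremes of 17087 after that removal. Without it r was only 0.189 for A230009B12Rik, which lay between 5.23 and 5.89.

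The study asked what loss of Mfn2 and age do to the muscle, and the slow fibre genes gave no called difference. At 6 months all 10 were higher in the KO mean, with a median difference of 1.40 on the log2 scale and a range from 0.47 for Casq2 to 1.81 for Myl3; the median over all genes was -0.01. None passed limma's test, with a smallest adjusted p of 0.99996, and 0 had an unadjusted p under 0.05, where 1.70% of all genes did and 0% were called. The groups overlapped for each member, while 1.36% of all genes did not overlap. The Myh7 difference was 1.51 with a 95% interval from -1.64 to 4.65, and that of Myoz2, with the smallest unadjusted p (0.121 in limma), was 1.28 from -0.38 to 2.95.

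At 22 months all 10 were again higher in the KO mean, by a median of 0.71, from 0.31 for Casq2 to 1.40 for Myh7. None was called by limma (0% of all genes were), 0 had an unadjusted p under 0.05 (1.14% of all genes), and the groups overlapped for each member (0.907% of all genes did not). Over both ages the difference was 1.45 ± 1.05 (SE) for Myh7, 1.43 ± 0.92 for Tnnc1 and 1.29 ± 0.73 for Tpm3, whose unadjusted p of 0.0982 in limma was the smallest (adjusted 0.99996). For that comparison too 0 of 10 members had an unadjusted p under 0.05, against 1.55% of all genes, and 0% of all genes were called. Since the 10 genes move together over mice, their shared sign is not 10 separate observations.

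The mice numbered 1 weighed heavily in these differences. The Myh7 difference between KO and control of the same number at 6 months was 6.02, 1.18, 1.27 and -2.45 for numbers 1 to 4. At 22 months it was 5.79, -1.67, 0.83 and 0.65. Without the 4 mice numbered 1, the difference over both ages was -0.03 ± 1.08 for Myh7, -0.08 for Tnni1, -0.24 for Tnnt1, -0.02 for Atp2a2 and -0.09 for Casq2, and between 0.07 and 0.30 for the other 5. At 6 months 8 of 10 members were then still higher in KO mice, by a median of 0.42 with Myl3 at 1.39, Myl2 at 1.08 and Myoz2 at 1.02, while at 22 months 0 of 10 were and the median was -0.37. Without the mice numbered 2, 3 or 4 it was 2.02, 1.59 and 2.24 for Myh7. Without number 4, Tpm3, Myl2, Tnnc1 and Atp2a2 reached unadjusted p-values of 0.0323, 0.0383, 0.0433 and 0.0458 in limma, and none was called. The share of all genes past such p-values in that run is not given here. These genes move together over mice, so they are not separate observations. These omissions were added after the values had been seen.

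**Figure D4:**
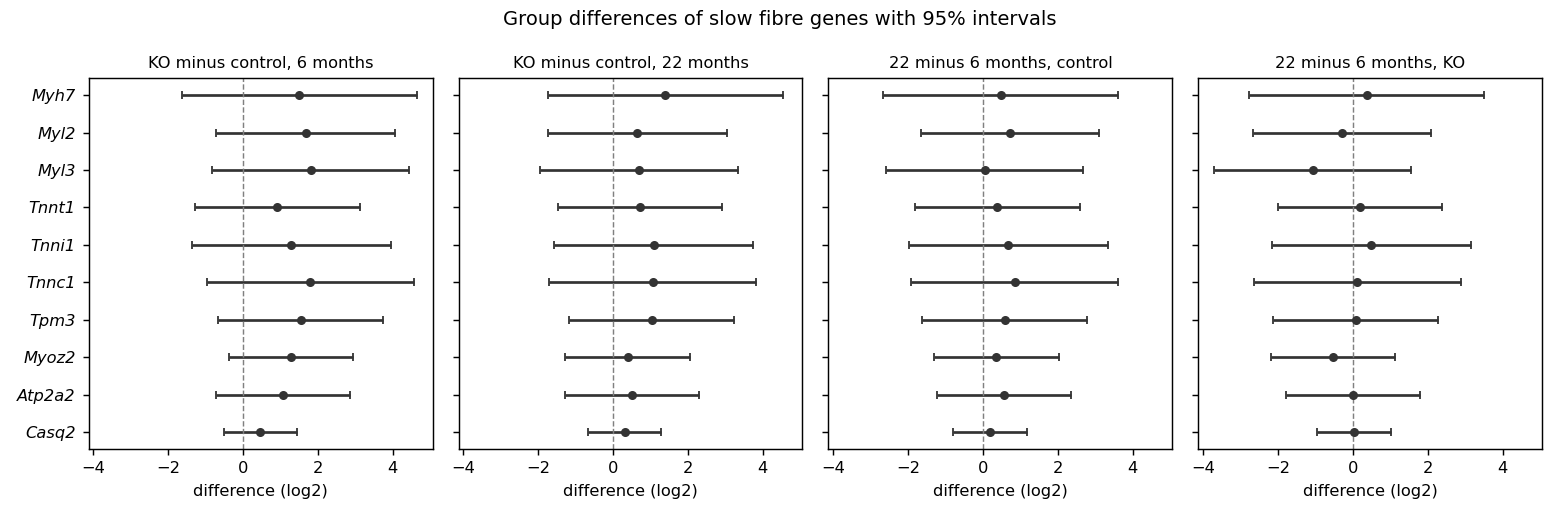
Difference between groups (log2 units) with its 95% interval from limma for each slow fibre gene, in 4 comparisons of 4 mice with 4. All 40 intervals include 0; the widest reach 3.14 to each side, for Myh7.

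No age difference was called either. In controls all 10 means were higher at 22 than at 6 months, by a median of 0.53, from 0.05 for Myl3 to 0.85 for Tnnc1. In KO mice 7 were higher and 3 lower (Myl3 at -1.07, Myoz2 at -0.53 and Myl2 at -0.30), with a median of 0.06. In limma 0 of 10 were called in controls and in KO mice, where 0% and 0.0175% of all genes were, and 0 had an unadjusted p under 0.05, where 2.12% and 2.59% did. The age groups overlapped for each member, against 1.52% (controls) and 1.80% (KO) of genes that did not overlap. Over both genotypes the median was 0.29, with 8 higher and Myl3 and Myoz2 lower, and 0 of 10 were called (0.0585% of all genes) or had an unadjusted p under 0.05 (3.52%).

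The difference between the genotype effects at 22 and 6 months was negative for all 10, by a median of -0.53, from -0.11 for Myh7 to -1.12 for Myl3. Limma called 0 of 10 (0% of all genes), 0 had an unadjusted p under 0.05 (1.13%), and the interval for Myh7 ran from -4.55 to 4.34. The median SE of a difference between 2 groups was 1.08 in the members and 0.157 over all genes. Adding the replicate number as a block lowered it to 0.0923 over all genes and left it at 1.06 in the members. With the block limma called 0 of the 10 members in each comparison, while 0.0468% of all genes were called for age in controls, 0.0234% for age in KO mice, 0.579% for age over both genotypes and 0% in the others. At an unadjusted p under 0.05 the block gave 0 of 10 members in each comparison, against 9.43% of all genes for genotype at 6 months, 6.62% at 22 months and 8.47% over both ages. For age those shares were 9.64% in controls, 10.2% in KO mice and 11.7% over both genotypes, and for the interaction 7.24%.

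A further fit, added after the values had been seen, held the Myh7 level fixed and compared the other 9 members between groups. It was made without the replicate block. At 6 months Tpm3 was 0.50 ± 0.19 (SE) and Tnnc1 0.49 ± 0.18 higher in KO mice, with unadjusted p-values in limma of 0.0194 and 0.0178 and an adjusted p of 0.99998. Over the 16 mice Tpm3 and Tnnc1 stood farthest above their lines on Myh7 in 1 young KO mouse, number 3, by 0.72 and 0.68. These 2 of the 9 were past an unadjusted p of 0.05, where 1.36% of all genes were. Tnni1 differed by 0.02 ± 0.13. At 22 months 0 of the 9 were (1.12% of all genes), with differences between -0.32 for Myl3 and 0.07 for Tpm3, and over both ages 0 of the 9 (1.16%). For age in controls Tnnc1 (0.43, p 0.0277) and Tnni1 (0.28, p 0.0486) were (2.08% of all genes), and for age in KO mice 0 were (2.73%), with Myl3 at -1.34 against -1.07 without the Myh7 term. For age over both genotypes Tnni1 was (0.22, p 0.0270; 3.64% of all genes), and for the interaction Tnnc1 (-0.64, p 0.0214; 1.16%). Limma called 0 of the 9 in all 7 comparisons of this fit. Of all 17096 genes it called 4 for age in KO mice, 9 for age over both genotypes and 0 in the others.

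The other slow fibre genes and the fast genes were read in the same comparisons. Of the 14 other slow fibre genes 12 were higher in KO mice at 6 months (median 0.50) and 13 at 22 months (median 0.15). Limma called 0, and only Lmod2, a leiomodin that lengthens thin filaments, had an unadjusted p under 0.05 (1.38 at 6 months, p 0.0265, adjusted p 0.99996). Of the 20 regulators 14 were higher at 6 months and 11 at 22 months, with 0 called. Of the 10 fast counterparts 9 were lower in KO mice at both ages, by medians of -0.08 and -0.04, with 0 called; Tnni2 had the smallest unadjusted p (-0.11 at 6 months, p 0.0037, adjusted p 0.99996). With the replicate block 4 of them were lower at 6 months at an unadjusted p under 0.05 in limma (9.43% of all genes in either direction): Tnni2 (p 0.00203), Mylpf (-0.15, p 0.00267), Tpm1 (-0.18, p 0.00656) and Myl1 (-0.12, p 0.00731), with adjusted p between 0.361 and 0.407.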

How the data were processed

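Quadriceps RNA of 16 mice, 25 ng each, was amplified, labelled and hybridised to Affymetrix mouse arrays, per the labels' protocols. The values are log2 signals per probe set that the authors deposited; the submitters' processing notes name RMA and the affy package (versions and settings not given in the sources used here). The array distributions were not identical (SD 1.70 to 1.94 by array). RMA compresses low signals, which understates folds near background.

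Of 45037 non-control probe sets, 28898 carried 1 gene symbol in the platform annotation, 551 several and 15588 none; those with 1 symbol gave 17097 genes, each read from its brightest probe set. All 4 groups entered 1 fit over all genes (R 4.3.3, limma 3.58.1), with Benjamini-Hochberg adjustment; a call is an adjusted p under 0.05. Correlations were tested with 100000 permutations in scipy 1.17.1. The fitting code was tested on simulated data. The number of arrays limits the precision, and each array is 1 mouse, so the spread within groups joins that of mice, muscle pieces and arrays.

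Arrays of the same replicate number deviated together over all genes in each of the 24 such pairs (r 0.289 to 0.780, median 0.677). Arrays whose numbers differ had a median r of -0.455. A fit with the number as a block was therefore made beside the group comparisons and the slopes on Myh7. The fit that held the Myh7 level fixed was made without the block. What the number stands for is not given in the sources used here.

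The members and lists were chosen with earlier results of these data known. Named genes were all members and their fast counterparts, up to 4 genes a list with the smallest p, the 6 genes most and 3 least like the members' mean (with and without group and number means removed), and Mfn2. Genes whose slope with Myh7 was called were named after seeing them. Alternatives were the block, family, other probe sets, array scaling, a level filter, array weights, and leaving out each mouse.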

Additional observations from a re-analysis of the deposited data

Results flagged for a closer look

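Of the 44 groups of 4 mice tested for a lone sample (the 10 slow fibre genes and Mfn2 in 4 groups each), 1 was marked, and chance marks about 1 in 20. Mfn2 stood at 6.32 in old KO 3, against 8.01 to 8.32 in the other 3 old KO mice, a gap of 0.846 of the group's range. No slow fibre gene had a lone mouse in any group.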

How the results depend on the processing

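No slow fibre gene was called in any of 288 settings and runs of the group comparisons, the replicate block included. The block left each difference as it was and the count of called members at 0. With all mice, limma called at most 0.0585% of all genes in a comparison, and at most 0.579% with the block. A count of 0 thus does not set the members apart from other genes. The sign of uncalled differences did turn, and the cause was not tested. With family and the replicate block together, where age rests on the mice of family Other, the age difference over both genotypes became -2.56 for Myh7, -1.79 Myl2, -1.74 Tnnt1, -1.998 Tnni1, -2.10 Tnnc1, -1.84 Tpm3, -1.28 Atp2a2 and -0.44 Casq2; in controls it became -3.87 for Myh7 and -2.65 for Myl3, in KO mice -1.24 for Myh7, and the Myh7 interaction became 2.63. The genotype difference kept its sign in that fit. At 22 months it was larger for every member (3.48 against 1.40 for Myh7). Family B had no KO mouse, and the only control of family A was old control 1, low for Myh7 (4.83). The genotype difference at 22 months in that fit thus leans on few mice. At 6 months the genotype difference was larger for Myl2, Myl3 and Myoz2 and smaller for the others (0.86 against 1.51 for Myh7). Over both ages it was 2.17 against 1.45 for Myh7. With array weights the age difference over both genotypes became -0.0076 for Myh7, -0.25 Myl2, -0.043 Tnnt1 and -0.013 Casq2, in controls -1.05 for Myl3, in KO mice -0.43 for Myh7, and the Myl3 interaction 0.22. Scaled arrays gave a Myh7 interaction of 0.034, and other probe sets gave 0.045 for that, -0.060 for Myl3 with age in controls and -0.028 for Atp2a2 with age. Without the mice numbered 1 the genotype difference became -0.033 for Myh7, -0.24 Tnnt1, -0.076 Tnni1, -0.016 Atp2a2 and -0.095 Casq2. Leaving out each mouse, with and without the block, the age difference over both genotypes ran from -0.0031 to 0.75 for Atp2a2, -0.060 to 0.30 Casq2, -0.057 to 1.20 Myh7, -0.40 to 0.79 Myl2, -1.18 to 0.10 Myl3, -0.54 to 0.28 Myoz2, -0.048 to 0.80 Tnnt1 and -0.040 to 0.91 Tpm3. In controls it ran from -0.49 to 2.02 for Myh7 and -1.29 to 1.27 for Myl3, and in KO mice from -0.52 to 1.46 for Myh7; the interaction ran from -1.65 to 0.98 for Myh7 and -2.34 to 0.22 for Myl3, and the genotype difference at 22 months from -0.53 to 1.62 for Myl3. Of the 9 other members, 5 to 9 had a called slope on Myh7 in these runs (5 with the other Myh7 probe set), while genes outside the members called ran from 0 to 39 higher and 0 to 31 lower, the most without young KO 3 and with the block; with the block and all mice they were 2 and 6. In the replicate number test 1 member was called without young control 4, old control 1 or old control 3.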
